A study of Homo sapiens with 12 samples.

Results

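The guanylate-binding protein (GBP) genes GBP1, GBP2, GBP3, GBP4 and GBP5 were followed through 4 treatments of a renal cancer cell line. The 5 genes were taken by symbol from a table of 17085 genes, chosen by their differences in read count and FPKM between the 4 groups, with movement in opposite directions allowed, and all 5 were among the 12841 genes with enough reads to be tested. Their values between the treatment groups therefore describe the choice: no p-value is given for a member, and counts of members past a threshold stand only beside the same share over all genes.

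RNA was sequenced from wild-type 786-O cells, an established line of clear cell renal carcinoma, in 4 groups of 3 libraries. Cells were exposed for 24 h to the solvent DMSO as the control (DMSO), to 5 µM everolimus, an mTOR inhibitor (EVER), to the DNA methyltransferase inhibitor SGI-1027 at 1.5 µM (SGI), or to everolimus plus SGI-1027 (COMB). One protocol entry of the group given everolimus alone names 10 µM, while the treatment fields of those same libraries name 5 µM. A single cell line was studied at a single time point, and whether the 3 libraries of a group were separate cultures is not stated in the sources used here, so p-values measure the spread between these libraries, which may be technical.

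GBPs are large GTPases of the dynamin superfamily that are made in many cell types after exposure to interferon gamma and, to a lesser degree, type I interferon. They assemble on the surface of bacteria and on the vacuoles that enclose pathogens, and they help to open these compartments and to activate inflammasomes, the complexes that start pyroptosis. Their promoters are known to respond to interferon through GAS and ISRE motifs, and IRF1 is among the factors that bind the ISRE. GBP1, GBP2 and GBP5 carry a lipid at their C terminus that lets them sit on membranes.

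Each library held 37046231 to 41516976 counted reads. Read numbers differed widely between members: 2707 to 4893 reads per library for GBP1, 2696 to 4264 for GBP3, 134 to 316 for GBP2, 131 to 265 for GBP4 and 46 to 141 for GBP5. Markers of renal carcinoma cells such as PAX8 (77.6 to 119 FPKM, fragments per kilobase of gene length scaled to library size) and KRT18 (220 to 271 FPKM) were high in every library, whereas the hypoxia target CA9 was low (0.0340 to 0.536 FPKM). The 6 leukocyte markers together reached 0.0766 to 0.364 FPKM over the 12 libraries, and PTPRC, the general leukocyte marker, was at 0 in 10 of them. SGI replicate 3 stood apart: its counts differed from those of the other SGI libraries more than any other pair within a group. The mean chi-square per gene, larger where counts differ more, was 16.4 and 16.1. Fold changes of the members without SGI replicate 3 are given with their results. DMSO replicate 1, shared by all comparisons with DMSO, also stood apart, at 10.1 and 12.9 against 3.56 between DMSO replicates 2 and 3. Ranges for COMB against DMSO with each library left out are given at the end for GBP1, GBP2 and GBP5. In bulk RNA, fewer cells that express a gene and less RNA per cell cannot be told apart. The paper reports early loss of membrane integrity in this line with both drugs at these doses. Whether the COMB RNA came from dying or surviving cells was not tested.

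The family lies in 1 cluster on chromosome 1, in the order GBP3, GBP1, GBP2, GBP7, GBP4, GBP5 and GBP6 in the RefSeq annotation. Promoter sequence was at hand for GBP1, GBP3 and GBP4 and is shown because the ISRE, the interferon-stimulated response element, is where interferon signalling reaches these genes. GBP2 and GBP5 were not matched. The windows below are from RefSeq, build GRCh38.p14, all on the minus strand and written 5′ to 3′ along the gene. They lie at chr1:89065276-89065385 for GBP1, chr1:89022847-89022931 for GBP3 and chr1:89198923-89198996 for GBP4, and reach from upstream of each gene's start to at most 20 bases past it. Capitals mark matches on either strand to the ISRE letters, which are GAAA, any 2 bases and GAAA again, and to TTCNNNGAA (GAS, the gamma-activated site, which reads the same on both strands).
GBP1: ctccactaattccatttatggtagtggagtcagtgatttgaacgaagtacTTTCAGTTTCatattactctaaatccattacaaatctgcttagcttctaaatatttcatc
GBP3: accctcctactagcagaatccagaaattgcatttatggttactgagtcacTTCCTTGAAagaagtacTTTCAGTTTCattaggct
GBP4: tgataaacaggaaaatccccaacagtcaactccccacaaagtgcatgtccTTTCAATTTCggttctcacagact
The ISRE letters ran from -127 to -118 in GBP1, from 3 to 12 in GBP3 and from -4 to 6 in GBP4, counted from the first transcribed base as 1. An exact match to the GAS letters TTCNNNGAA stood only in GBP3, from -15 to -7, apart from its ISRE. Sites that depart from these letters were not searched for, so an unmarked stretch is not shown to lack one. Over 35116 RefSeq promoters of the same length, from 250 bases before to 50 bases after the start, 3.57% held the ISRE letters and 7.66% the GAS letters. GBP1 and GBP3 shared an identical run of 19 bases, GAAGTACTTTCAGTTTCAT, that includes the ISRE. The windows of GBP6 and GBP7 held neither motif.

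In the control cells, GBP1 and GBP3 made up nearly all of the family's transcript level per length. GBP1 stood at 25.8 ± 0.341 FPKM (mean ± SD, n = 3) and GBP3 at 21.9 ± 0.510 FPKM, which placed them at the 86.1 and 84.1 percentiles of all genes. GBP2 stood at 1.83 ± 0.135 FPKM (percentile 45.8), GBP4 at 0.626 ± 0.0982 FPKM (37.0) and GBP5 at 0.207 ± 0.0277 FPKM (31.6). On the gene lengths behind the deposited FPKM, no 2 of the 5 genes overlapped in level among the DMSO libraries. On the same lengths, the shares of the summed family FPKM were 51.2% for GBP1, 43.5% for GBP3, 3.63% for GBP2, 1.24% for GBP4 and 0.410% for GBP5.

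**Figure D1:**
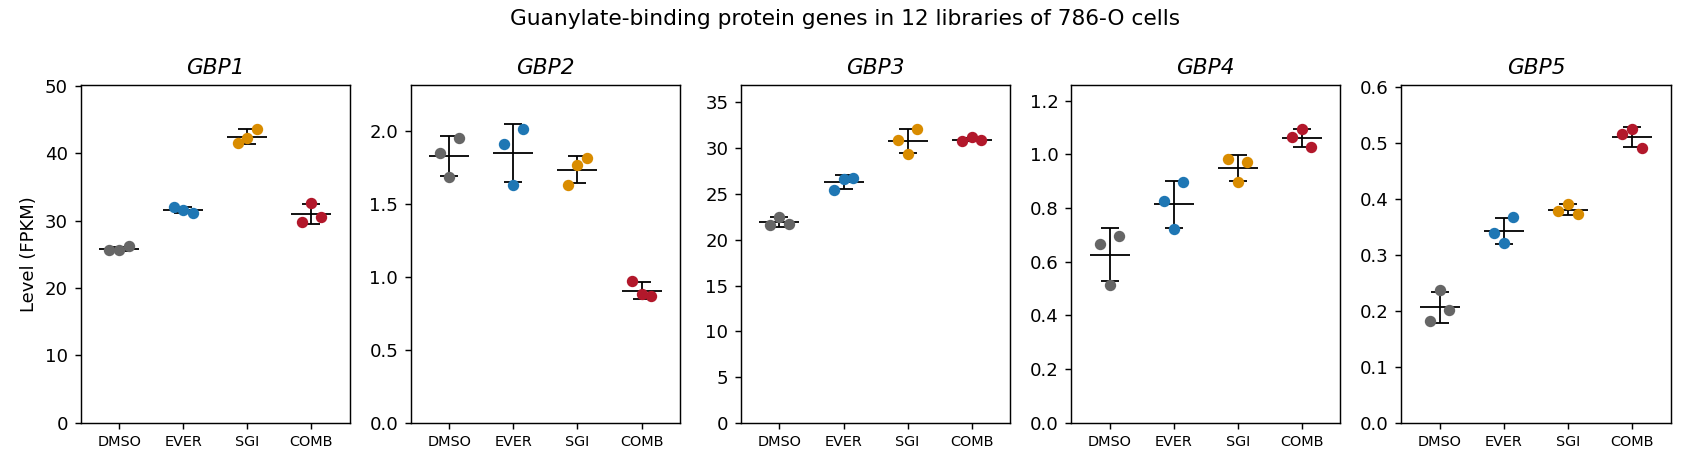
FPKM (fragments per kilobase, scaled to library size) of GBP1 to GBP5 in each of the 12 libraries, with 1 panel and 1 linear axis from 0 per gene. Points are libraries, and horizontal and vertical bars are the mean and SD of 3. GBP1 peaks in SGI at 42.4 FPKM, GBP3 levels off near 31.0 FPKM in SGI and COMB, GBP4 and GBP5 are highest in COMB, and GBP2 stands apart only in COMB, at 0.907 FPKM.

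Against DMSO, 4 members were higher in each treated group and GBP2 was the exception. With everolimus alone, GBP1, GBP3, GBP4 and GBP5 lay above all 3 DMSO libraries and passed an adjusted p under 0.05 (edgeR quasi-likelihood test, Benjamini-Hochberg adjustment over all tested genes), a call made as higher for 27.2% of all genes tested and as lower for 29.2%. GBP4 was not called there without DMSO replicate 2 (log2 fold change 0.25), EVER replicate 1 (0.36) or EVER replicate 3 (0.30). With SGI-1027 alone the same 4 genes passed, against 32.0% of all genes called as higher and 30.6% as lower. With both drugs these 4 were higher and GBP2 was lower, against 32.8% and 33.4% of all genes. By the study's cut-off for differentially expressed genes, an unadjusted p under 0.05 and a log2 fold change of at least 1 in size, no member was called with everolimus alone (background 3.89% higher, 0.903% lower) or with SGI-1027 alone (6.25% and 1.07%), while 4 members had an unadjusted p under 0.05 in each case and DESeq2 also called 0. In COMB, GBP5 was past that cut-off as higher and GBP2 as lower, against a background of 7.25% and 2.71%. The median log2 fold change of the 5 genes was 0.28 in EVER, 0.61 in SGI and 0.48 in COMB, where the medians over all tested genes were 0.0013, 0.017 and 0.0074. These contrasts chose the members, so nothing is read from the counts, and the 3 comparisons share their DMSO libraries. Without SGI replicate 3, the log2 fold changes in SGI were 0.69 for GBP1, -0.11 for GBP2, 0.45 for GBP3, 0.58 for GBP4 and 0.88 for GBP5.

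The sum of the family, which is carried by GBP1 and GBP3, was highest with SGI-1027 alone and not with the combination. Summed FPKM was 50.4 ± 0.427 in DMSO, 60.8 ± 0.336 in EVER, 76.3 ± 2.22 in SGI and 64.4 ± 1.62 in COMB (SD, n = 3), with no overlap between any of the groups. The make-up of the sum also differed. GBP1 took 55.6% of it in SGI and 48.1% in COMB, GBP3 took 40.3% and 48.1%, GBP2 took 3.63% in DMSO and 1.41% in COMB, and GBP5 took 0.410% in DMSO and 0.793% in COMB.

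GBP1, the best studied member, coats cytosolic bacteria and recruits the other family members to them. Its level was 25.6, 25.6 and 26.2 FPKM in the DMSO libraries, 32.0, 31.6 and 31.1 in EVER, 41.4, 42.3 and 43.6 in SGI and 29.8, 32.6 and 30.6 in COMB. All 3 SGI libraries were above every other library, all 3 DMSO libraries were below, and EVER and COMB overlapped. As log2 fold changes against DMSO, this was 0.28 (SE 0.04) for everolimus, 0.72 (SE 0.04) for SGI-1027 and 0.24 (SE 0.04) for both. Everolimus thus went with a higher GBP1 level when given alone and with a lower one when given on top of SGI-1027, where the log2 fold change of COMB against SGI was -0.47 (SE 0.04). The difference between these 2 everolimus contrasts was -0.76 (SE 0.06) on the log2 scale. Without SGI replicate 3, COMB against SGI gave -0.45.

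GBP3, which joins the GBP1 coat on cytosolic bacteria, shared the level of GBP1 but not its pattern in COMB. It stood at 21.6, 22.5 and 21.7 FPKM in DMSO, 25.4, 26.7 and 26.8 in EVER, 30.8, 29.4 and 32.1 in SGI and 30.8, 31.2 and 30.9 in COMB. The libraries formed 3 levels without overlap, with SGI and COMB together at the top. The log2 fold change was 0.26 (SE 0.04) in EVER, 0.49 (SE 0.04) in SGI and 0.48 (SE 0.04) in COMB, and COMB differed from SGI by -0.01 (SE 0.04). The ratio of GBP1 to GBP3 FPKM was 1.18 ± 0.0370 in DMSO, 1.20 ± 0.0519 in EVER, 1.38 ± 0.0507 in SGI and 1.001 ± 0.0394 in COMB (SD, n = 3). The SGI ratios were above and the COMB ratios below those of all other groups, and only DMSO and EVER overlapped.

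GBP4 and GBP5 rank low by read number and were highest in COMB. GBP4, which lacks the lipid anchor and takes part in the bacterial coat, stood at 0.668, 0.514 and 0.696 FPKM in DMSO, 0.827, 0.721 and 0.895 in EVER, 0.982, 0.896 and 0.971 in SGI and 1.07, 1.09 and 1.03 in COMB. The groups did not overlap in this order, although the highest EVER and the lowest SGI library were nearly equal. Its log2 fold change was 0.38 (SE 0.13), 0.61 (SE 0.13) and 0.75 (SE 0.13) in EVER, SGI and COMB. GBP5, a prenylated member known to promote NLRP3 inflammasome assembly and to restrict the maturation of viral envelope proteins, stood at 0.182, 0.237 and 0.202 FPKM in DMSO, 0.339, 0.321 and 0.367 in EVER, 0.378, 0.392 and 0.373 in SGI and 0.517, 0.525 and 0.490 in COMB. Again no group overlapped the next. The log2 fold change of GBP5 was 0.72 (SE 0.16) in EVER, 0.87 (SE 0.16) in SGI and 1.28 (SE 0.16) in COMB, the last of which is 2.42-fold on 134, 141 and 126 reads against 46, 67 and 53. On the log2 scale after adding 1 FPKM the COMB difference of GBP5 was 0.32 and that of GBP4 0.34, where the pseudocount is near or above the levels themselves.

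GBP2, the prenylated member that acts together with GBP5 against viral envelope proteins, went the other way. It stood at 1.85, 1.69 and 1.95 FPKM in DMSO, 1.91, 1.63 and 2.01 in EVER and 1.63, 1.77 and 1.81 in SGI, 3 groups that overlapped throughout. In COMB it stood at 0.971, 0.881 and 0.869 FPKM, below all 9 other libraries. The log2 fold change was 0.01 (SE 0.11) for everolimus, -0.07 (SE 0.11) for SGI-1027 and -1.03 (SE 0.11) for both drugs, which is 0.490 of the DMSO level. The reads behind it were 151, 142 and 134 per COMB library against 280, 286 and 308 in DMSO. COMB was lower than EVER by -1.04 (SE 0.11) and than SGI by -0.96 (SE 0.11). The value lies next to the cut-off of 1, and leaving out DMSO replicate 3 gave -0.97, with no member then called as lower by that rule.

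**Figure D2:**
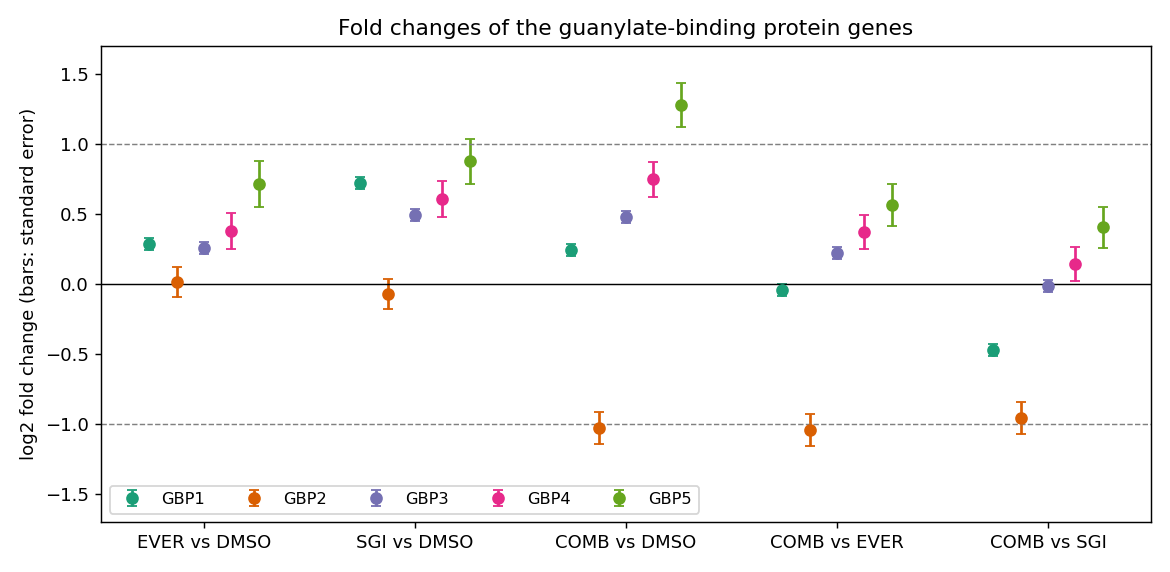
log2 fold changes of the 5 GBP genes (edgeR, points) with their standard errors (bars) in the 3 comparisons with DMSO and the 2 comparisons of COMB with a single drug; dashed lines mark a change of 1 in size. GBP2 lies near -1 in the 3 comparisons that contain COMB and near 0 in the other two, while GBP5 is the highest point in every comparison.

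Between the combination and each single drug, the family split. Against EVER, GBP3, GBP4 and GBP5 were higher and GBP2 lower by adjusted p, where 20.1% of all tested genes were called as higher and 19.2% as lower, and GBP2 alone was past the study's cut-off as lower (background 1.46%, and 2.44% as higher). GBP4 was not called against EVER without EVER replicate 2 (0.28) or COMB replicate 2 (0.36). The log2 fold changes were 0.22 (SE 0.04) for GBP3, 0.37 (SE 0.12) for GBP4, 0.56 (SE 0.15) for GBP5 and -0.04 (SE 0.04) for GBP1. Against SGI, GBP1 and GBP2 were lower by adjusted p and no member was called as higher, with 9.40% of all genes called as higher and 10.2% as lower. Of the 5 members 3 had an unadjusted p under 0.05 there, DESeq2 called 0 as higher and 2 as lower, and no member was past the study's cut-off by either tool (background 0.428% higher, 1.21% lower). GBP4 and GBP5 differed from SGI by 0.14 (SE 0.12) and 0.40 (SE 0.15), and their COMB libraries lay above all SGI libraries.

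For every member the combination lay below the sum of both drugs' own log2 fold changes. That sum was 1.0 for GBP1, -0.06 for GBP2, 0.74 for GBP3, 0.98 for GBP4 and 1.59 for GBP5. The differences between combination and sum were -0.76 (SE 0.06) for GBP1, -0.97 (SE 0.16) for GBP2, -0.27 (SE 0.06) for GBP3, -0.24 (SE 0.18) for GBP4 and -0.31 (SE 0.22) for GBP5. Those of GBP4 and GBP5 were less than 2 SE in size, while the first 3 genes passed an adjusted p under 0.05 as lower, against 22.1% of all tested genes as lower and 23.6% as higher. By the cut-off that also asks for a size of 1 no member was called (background 4.63% lower, 1.14% higher), with 3 members at an unadjusted p under 0.05 and none called by DESeq2. Under upper-quartile scaling, 39.5% of all called differences of this kind were higher in place of 51.7%, and in EVER against DMSO 60.7% in place of 48.2%.

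**Figure D3:**
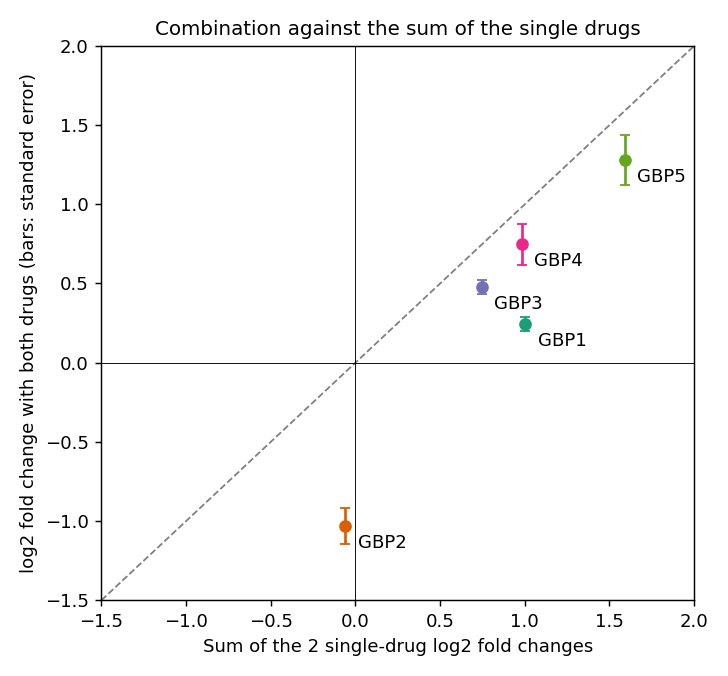
log2 fold change of each GBP gene with both drugs (vertical axis, bars are standard errors) against the sum of its log2 fold changes with each drug alone (horizontal axis); the dashed line marks equality. All 5 points lie below the line, GBP1 by 0.76 and GBP2 by 0.97, while GBP4 and GBP5 lie within 2 standard errors of the difference.

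The levels of GBP1 to GBP3 rest on reads that could in part be shared with near-identical copies. Of all runs of 50 bases in the longest coding transcripts of the GENCODE annotation, 13.3% of those of GBP1 occurred in another gene of the cluster or in the pseudogene GBP1P1, as did 4.14% for GBP3, 3.09% for GBP2, 0.313% for GBP4 and 0 for GBP5. Over runs of 100 bases, GBP1 shared 1.87% with GBP1P1 and the other 4 genes shared 0. How reads that match several genes were counted is not given in the sources used here. Gene length also entered the order of levels. The lengths behind the deposited FPKM were 6141 bases for GBP4 and 6812 for GBP5, and GBP5 stood at 0.481 of the GBP4 level in COMB. Per base of the shortest coding GBP5 transcript, 2011 bases, the ratio was 1.62, so that the order of GBP4 and GBP5 turned. Per base of the longest coding transcripts, GBP1 and GBP3 stood at 24.2 ± 0.321 and 24.1 ± 0.561 in DMSO (SD, n = 3), no longer apart, and GBP2 at 3.37 ± 0.248. Per base of a GBP3 coding transcript of 702 bases, GBP3 stood at 105 ± 2.45, above GBP1. The order of GBP1 and GBP3, and the family shares, thus hold only for the deposited lengths. Fold changes of one gene between groups do not depend on this length, nor do differences between groups in the ratio of GBP1 to GBP3, taken as folds.

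Of the other GBP genes, GBP6 had 0 to 3 reads per library, while GBP7 and the pseudogene GBP1P1 were not analysed here. Of 4 tested relatives, ATL2, an atlastin that shapes the endoplasmic reticulum, fell in all 3 treatments, by 0.27, 0.42 and 0.30 on the log2 scale in EVER, SGI and COMB (adjusted p = 0.00246, 3.38e-05 and 0.000677, edgeR quasi-likelihood test). RNF112 was called as higher in all 3, on a mean of only 7.25 reads per library (0.00330 ± 0.00322 FPKM in DMSO and 0.0489 ± 0.0102 in COMB, SD, n = 3), and without genes under 10 reads in any library it was not tested. ATL3 (0.06, SE 0.06 in COMB) and IRGQ (0.02, SE 0.06) were not called in any of them, and IRGM and IRGC had at most 7 reads in a library. The median of the 4 was 0.02 in EVER, -0.01 in SGI and 0.04 in COMB.

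The genes next to the cluster were not called in the comparisons with DMSO, while LRRC8C and LRRC8D further out were. GTF2B, KYAT3 and RBMXL1 on one side and LRRC8B on the other were not called in any of the 3, with log2 fold changes in COMB of -0.06 (SE 0.07), 0.09 (SE 0.11), -0.16 (SE 0.10) and 0.07 (SE 0.08). Further out, 2 genes for subunits of volume-regulated anion channels were called by edgeR's quasi-likelihood test. LRRC8D fell by 0.25 in EVER, 0.29 in SGI and 0.32 in COMB (adjusted p = 0.000185, 4.20e-05 and 1.00e-05). LRRC8C fell by 0.25 in EVER and 0.26 in SGI (adjusted p = 0.00650 and 0.00465) and stood at 0.13 in COMB (SE 0.07, adjusted p = 0.1245). The flanking genes were named for their place, after their values were seen.

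Receptors, kinases and transcription factors upstream of the GBPs, listed together with the signalling inhibitors SOCS1, SOCS3, USP18 and PTPN2, moved both ways. Of 22 tested genes, 10 rose and 8 fell in EVER, 11 rose and 5 fell in SGI and 10 rose and 6 fell in COMB, with medians of 0.09, 0.15 and 0.08. Here and for the lists below, rose and fell mean an adjusted p under 0.05. Over all tested genes this call was made as higher for 27.2%, 32.0% and 32.8% in EVER, SGI and COMB. As lower it was made for 29.2%, 30.6% and 33.4%. The largest changes in COMB were in BATF2, a leucine zipper factor (log2 fold change 2.86, SE 0.19, adjusted p = 3.71e-10), IRF7 (2.64, SE 0.20, adjusted p = 1.60e-09), STAT2 (2.34, SE 0.05, adjusted p = 3.03e-16) and USP18, which dampens type I receptor signalling (2.0, SE 0.09, adjusted p = 1.02e-12). JAK1, a kinase of the interferon receptors, was picked after its values were seen, for its likeness to GBP1. It rose by 0.13 in EVER and 0.31 in SGI, was 0.06 (adjusted p = 0.114) in COMB, and was lower in COMB than in SGI by -0.25 (SE 0.03, adjusted p = 3.10e-05). IRF1, named after its values were seen, rose by 0.19, 0.54 and 0.54. GBP3 stood at 0.26, 0.49 and 0.48, and GBP1 at 0.28, 0.72 and 0.24. JAK1 and IRF1 were picked with these values known, so nothing is read from a likeness to a member. All of these tests are edgeR quasi-likelihood tests.

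Genes induced by interferon gamma, the main inducer of the GBPs, rose in 24 of 30 cases in both groups that received SGI-1027. Of 30 tested genes on that list, 12 rose and 7 fell in EVER, 24 rose and 2 fell in SGI and 24 rose and 3 fell in COMB, with medians of 0.16, 0.59 and 0.77. The share of all tested genes called as higher was 27.2%, 32.0% and 32.8% in EVER, SGI and COMB. CXCL10, a chemokine, rose by 2.60 in SGI and 1.87 in COMB, and COMB was below SGI by -0.74 (SE 0.20, adjusted p = 0.0116). Like GBP1, it had its highest mean level in SGI (3.39 ± 0.860 FPKM, against 2.07 ± 0.0655 in COMB and 0.929 ± 0.0556 in EVER, SD, n = 3). Where the mean reached 50 reads, the next largest COMB changes were those of SAMHD1, which breaks down nucleotides (1.60, SE 0.07), PARP14 (1.57, SE 0.06) and UBE2L6 (1.51, SE 0.07). Below 50 reads, and named after its values were seen, the related chemokine CXCL11 rose by 3.02 in COMB (SE 0.28, adjusted p = 2.54e-08) and differed by 0.03 between COMB and SGI. Genes induced by type I interferon had larger medians than the GBPs in SGI and COMB but not in EVER. All 30 rose in SGI and in COMB, with medians of 1.79 and 2.02, whereas 17 rose in EVER with a median of 0.26 and 0 fell, also by unadjusted p and by DESeq2. The antiviral IFITM1 (3.73, SE 0.28), EPSTI1 (3.34, SE 0.19), IFI44L (3.30, SE 0.08) and IFI27 (3.19, SE 0.17) had the largest COMB changes where the mean reached 50 reads. XAF1, just under that mean and named after its values were seen, stood at 3.65 (SE 0.37).

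Genes listed as partners of the GBPs in cytosolic defence rose in larger number than they fell. The list also holds PIM1 and SFN, which are known to restrain GBP1 and rose in SGI and COMB. Of 20 tested genes, 13 rose in EVER, 14 in SGI and 16 in COMB, and 1, 1 and 0 fell, with 0 also by unadjusted p and by DESeq2 in COMB. Medians were 0.32, 0.52 and 0.74. NLRP1, an inflammasome sensor, rose by 1.22, 1.88 and 2.38 in EVER, SGI and COMB, and CASP1, the inflammasome protease, by 0.53, 0.85 and 1.20. Their mean levels in DMSO were 0.781 and 1.01 FPKM. SQSTM1, an autophagy receptor, rose by 0.73, 1.11 and 1.64, and RNF213, a ubiquitin ligase that coats bacteria, by 0.48, 1.22 and 1.37. IL1B was not called in EVER, SGI or COMB (-0.57, SE 0.31 in COMB, adjusted p = 0.121, edgeR quasi-likelihood test). CASP5, AIM2 and NLRC4 had at most 6 reads in a library and were not tested, and PYCARD was not analysed here. A further list was drawn up around the lipid modification of C termini. It also holds RABGGTA, RABGGTB and CHM, which serve Rab proteins, and FURIN, a protease. Of its 11 tested genes, 4 rose and 5 fell in COMB with a median of -0.12. In EVER and SGI 2 rose and 4 fell, with medians of -0.115 and -0.113. Over all tested genes, 27.2% to 32.8% were called as higher and 29.2% to 33.4% as lower in these comparisons, and nothing is read from counts of this size. In COMB, FNTB, a subunit of farnesyltransferase, fell by 0.52 (adjusted p = 0.0211), ZMPSTE24 by 0.35 (adjusted p = 1.38e-05) and RABGGTB by 0.34 (adjusted p = 0.000308), while RABGGTA rose by 0.38 (adjusted p = 0.00336, edgeR quasi-likelihood test).

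**Figure D4:**
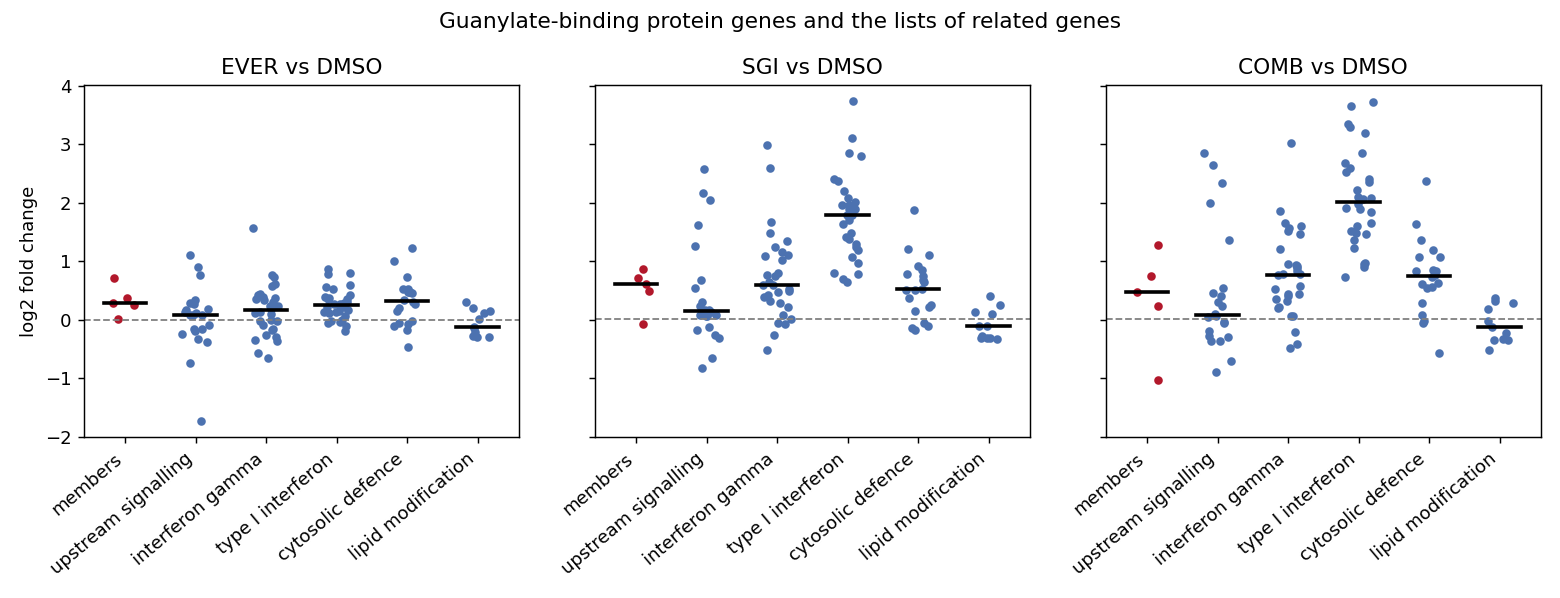
log2 fold changes of the 5 members (red) and of the tested genes of 5 lists (blue) in EVER, SGI and COMB against DMSO, 1 point per gene, spread sideways for sight. Black lines are medians and the dashed line is the median of all tested genes. Type I interferon genes have medians of 1.79 in SGI and 2.02 in COMB, above the members' 0.61 and 0.48.

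The members were also set beside all genes with a mean of at least 50 reads by the root-mean-square difference of log2 CPM, each centred on DMSO, over the 12 libraries. Nearest to GBP1 were RNF144B (0.0809), ANXA4 (0.0847) and EFEMP1 (0.112). Nearest to GBP2 were the epithelial transcription factor ELF3 (0.112), the kidney injury marker HAVCR1 (0.112) and COL8A1 (0.135), whose log2 fold changes in COMB were -1.06, -0.94 and -0.99 and whose levels in COMB were 12.3, 39.9 and 9.94 FPKM. GBP3 lay nearest to ZEB2 (0.0530), SH3BP4 (0.0566) and MVP (0.0566), and GBP4 to ZNF397 (0.0989), ANKRD36B (0.105) and MPG (0.106). Nearest to GBP5 were SLC17A5 (0.0992), a lysosomal sialic acid transporter, ERFE (0.107) and DNASE2 (0.116), a lysosomal nuclease. Among the members themselves the nearest pair was GBP1 and GBP3 at 0.170, followed by GBP3 and GBP4 at 0.206, while GBP2 was at least 0.763 from each of the others. Each member had genes outside the family that were nearer to it than any other member. With 11464 genes compared and only a few of them in the family, this was likely in advance. The values compared are also those that chose the members, so nothing is read from it.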

How the data were processed

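RNA of 12 libraries (4 groups of 3) was measured. The authors deposited raw read counts per gene and FPKM values, of which the counts are whole numbers and the FPKM are scaled by library size and a fixed length per gene. The aligner, counter and annotation are not given in the sources used here. The submitters' processing notes name only mouse builds (GRCm 38, mm 10), although the cells are human, so no coordinates of the authors' build are used. The records and the methods name different extraction and library kits.

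Counts of 12841 genes kept by filterByExpr were fitted in edgeR 4.0.16 (R 4.3.3) with TMM factors (0.990 to 1.01) and all 4 groups in 1 quasi-likelihood model, adjusted by Benjamini-Hochberg. Standard errors are the log2 fold change over the root of F. The combination against the sum of the single drugs was fitted as a difference of contrasts. For members no p-value is given, and their calls are counted as a description only. Levels are compared between genes only as FPKM. Fits were tested on simulated data. Libraries of 1 number did not deviate together (correlations -0.176 to 0.0358), so the numbers pair nothing. Among libraries of different groups and numbers, DMSO replicate 1 and SGI replicate 3, which both stood apart, had the highest correlation, 0.232. Its cause was not tested. Alternatives were DESeq2 1.42.0, upper-quartile factors, other count filters, a replicate block, fits on the contrast's groups alone, limma 3.58.1 on log2(FPKM + 1) and log2(FPKM + 0.1), and each library left out.

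Named genes were the members, every detected relative, from each list the 4 with the largest called change in COMB and a mean of at least 50 counts, and the 3 genes nearest to each member. JAK1, IRF1, CXCL11, XAF1 and the genes flanking the cluster were named outside this rule, after their values were seen. Members and lists were chosen with earlier results of these data known. Depth, 37046231 to 41516976 counts per library, limits GBP5 most. Protein sequences were not analysed here.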

Additional observations from a re-analysis of the deposited data

Results flagged for a closer look

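GBP1 stood out because everolimus went with a higher level in all 3 libraries when given alone and with a lower level in all 3 when given with SGI-1027, a difference of -0.76 on the log2 scale for which no p-value is given, since these values chose the gene.

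The response to both drugs differed from the sum of the single drugs for 12 of the list genes named by rule. It also differed for JAK1, IRF1 and CXCL11, list genes named outside the rule, but not for XAF1. These are edgeR quasi-likelihood tests at an adjusted p under 0.05. Over all tested genes 22.1% passed as lower and 23.6% as higher, so nothing is read from the count. The combination lay below the sum for BATF2 by -0.82, STAT2 by -0.60, CXCL10 by -1.46, NLRP1 by -0.72, SQSTM1 by -0.19, RNF213 by -0.33, JAK1 by -0.38, IRF1 by -0.19 and CXCL11 by -1.55. It lay above the sum for USP18 by 0.69, SAMHD1 by 0.62, IFI27 by 0.68, ZMPSTE24 by 0.21, RABGGTB by 0.27 and ATL2 by 0.38.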

How the results depend on the processing

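No log2 fold change of a member that was called changed direction under the alternatives tried. Values near 0 changed sign when libraries were left out: GBP2 in EVER (-0.05 to 0.10) and GBP3 in COMB against SGI (-0.04 to 0.02). By adjusted p, GBP4 lost its call in EVER against DMSO without DMSO replicate 2, EVER replicate 1 or EVER replicate 3, leaving 3 members higher, and in COMB against EVER without EVER replicate 2 or COMB replicate 2, leaving 2. In COMB against DMSO, leaving out 1 library gave -1.08 to -0.97 for GBP2, 1.19 to 1.40 for GBP5 and 0.21 to 0.28 for GBP1, and limma on log2(FPKM + 1) gave -0.57 for GBP2 and 0.32 for GBP5. With limma at either pseudocount, 0 members were past the fold cut-off in COMB against DMSO in either direction and 0 as lower in COMB against EVER, since the pseudocount shrinks low genes, and 1 was called as higher by adjusted p in COMB against SGI. With upper-quartile factors 0 members were called as lower by the cut-off in COMB against DMSO, and 1 in the comparison with the sum. Leaving out 1 library gave 0 to 1 members lower by the cut-off in COMB against DMSO (0 without DMSO replicate 3), against EVER (0 without EVER replicate 3), against SGI (1 without SGI replicate 1 or COMB replicate 1) and against the sum (1 without DMSO replicate 3, EVER replicate 2, SGI replicate 1 or COMB replicate 1). The cause was not tested.

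Among lists, the count of relatives called as higher, which is RNF112, was 0 with at least 10 counts in every library in all 3 treatments, 0 with limma at both pseudocounts or with only the groups of the contrast in EVER and SGI, and 2 with upper-quartile factors in EVER. Upper-quartile factors gave 5 upstream genes lower in EVER, 0 partners lower in EVER and SGI, 4 lipid genes higher in EVER and in SGI, and 1 lipid gene above the sum. Limma at both pseudocounts gave 1 lipid gene higher in SGI. Leaving out 1 library gave 0 to 1 type I interferon genes lower in EVER, 1 to 2 partners lower in EVER, 0 to 3 in SGI and 0 to 2 in COMB, and 1 to 3 lipid genes higher in EVER, in SGI and above the sum.

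With the replicate number as a block, 4 members were higher and 1 lower by adjusted p in COMB against DMSO, as without it, and 1 lipid gene was higher in SGI in place of 2. The block changed no other count of members. Other lengths, added after seeing the data, set GBP5 at 0.695 (longest coding transcripts) or 1.62 (shortest coding GBP5 transcript) of GBP4 in COMB, in place of 0.481. With CPM in place of FPKM, the order of SGI and COMB for GBP3 turned, and these groups overlapped on both scales. Depth limits GBP5 and GBP4 most.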
